A study of Homo sapiens with 25 samples.

Results

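Centromeres are built on long tandem arrays of alpha-satellite repeats, and the DNA beside them is packed as heterochromatin. That packing is known to rest on methylation of lysine 9 of histone H3, on HP1 proteins that bind the methylated lysine, and on DNA methylation. In the GRCh38 human genome the centromeric arrays are modelled sequence, so near-identical repeats stand at many positions and a short read from one of them can often be placed at several. The arrays of chromosomes 1, 5 and 19 are closely related to each other. ATAC-seq cuts DNA with a transposase and marks stretches that the enzyme can reach, called peaks.

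The peaks described here are those that overlapped any of 6 windows at centromeres in the deposited ATAC lists. The windows were 121.7 to 125.1 Mb of chromosome 1, 46.4 to 50.1 Mb of chromosome 5 and 58.1 to 61.6 Mb of chromosome 7. The others were 39.6 to 41.6 Mb of chromosome 10, 50.8 to 54.5 Mb of chromosome 11 and 24.2 to 27.3 Mb of chromosome 19. Together they span 19.4 Mb. Over the 9 lists, 5248 of 683833 peaks on chromosomes 1 to 22 and X fell there, which is 0.767%. Merged over the lists, these made 2549 of 239554 regions. The windows were selected on measured values of these lists, namely the number, width and column 9 (the -log10 q) of their peaks in the 3 groups, so those 3 measures are given as descriptions with no test.

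All samples were HEC-1A cells, an established epithelial line from a human endometrial adenocarcinoma, labelled WT, and the labels name no other allele, agent or vehicle. THC, tetrahydrocannabinol of the cannabis plant, was given at 20 µM. ATAC-seq and RNA-seq each had 3 libraries after 24 h of THC, 3 after 72 h and 3 untreated, and CUT&RUN for H3K4me3, a histone mark of active promoters, had 3 THC libraries of unstated duration and 3 untreated. The untreated libraries carry no time, so time in culture and THC exposure cannot be told apart. Libraries are called biological replicates, without saying that they came from separate cultures, so the spread between them may be technical.

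The epithelial identity held in the RNA: 9 of 9 epithelial markers had a mean of at least 1 TPM (transcript abundance corrected for length and scaled to the same total in each library). Of the markers of other cell types, 1 of 6 stromal, 0 of 5 immune and 0 of 4 endothelial ones reached that level. The summed level of the epithelial markers was 5084 to 5275 TPM at 24 h, 3757 to 3993 at 72 h and 3022 to 3153 in untreated cells, and that of the stromal markers 0.537 to 1.11 TPM at 24 h, 0.888 to 1.28 at 72 h and 3.00 to 3.22 in untreated cells. Neither set of sums overlapped between THC and untreated libraries, and their part in the results was not tested. The 9 ATAC lists differed in length by more than the windows' peaks could account for. They held 62064, 57356 and 78290 peaks after 24 h, 51017, 38495 and 80773 after 72 h, and 150884, 65042 and 99912 in untreated cells. The lists hold no read counts, so the depth of each library is unknown and no counting error can be given.

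The windows held 318, 523 and 435 peaks in the 24 h libraries (replicates 1 to 3), 1337, 1292 and 539 in the 72 h libraries, and 151, 431 and 222 in the untreated ones. All 3 counts at 72 h lay above all 3 untreated counts, while the 24 h and untreated counts overlapped. The means were 425 ± 103 at 24 h, 1056 ± 448 at 72 h and 268 ± 146 in untreated cells (SD, n = 3 each). The log2 ratio of these means was 0.67 for 24 h against untreated, 1.98 for 72 h against untreated and 1.31 for 72 h against 24 h. The 72 h libraries did not form 1 level: replicate 3 stood apart from replicates 1 and 2 and close to the highest 24 h library. With replicates 1 and 2 left out, the log2 ratio of 72 h against untreated was 1.01 and that of 72 h against 24 h was 0.34.

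As a share of its own list, the windows of a library took 0.512%, 0.912% and 0.556% of peaks after 24 h, 2.62%, 3.36% and 0.667% after 72 h, and 0.100%, 0.663% and 0.222% in untreated cells. On this scale 72 h replicate 3 and untreated replicate 2 were almost level. Both libraries with the shortest lists, 72 h replicates 1 and 2, had the most peaks in the windows, and the library with the longest list, untreated replicate 1, had the fewest. The part of list length in these counts was not tested. When each list was held to its 38495 peaks with the highest column 9, which is the length of the shortest list, the windows kept 117, 234 and 146 peaks at 24 h, 943, 1292 and 223 at 72 h, and 23, 134 and 45 in untreated cells. All 72 h counts lay above all untreated ones, and 72 h replicate 3 fell within the range of the 24 h libraries. The cut fell at a different column 9 in each list. The lowest value kept was 2.77, 2.49 and 4.13 at 24 h and 2.13, 1.31 and 3.53 at 72 h. In untreated cells it was 4.05, 2.93 and 5.21. The list of 72 h replicate 2 was not cut at all. Lists cut at a higher value lose more of their weak peaks, so these counts are no check on the part of list length.

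**Figure D1:**
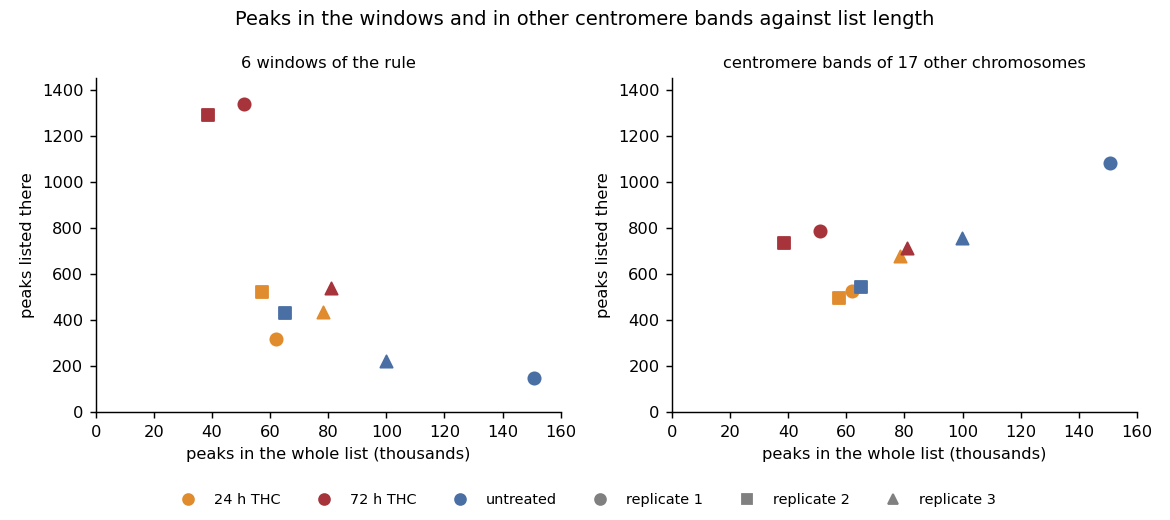
Each point is 1 ATAC library, with the number of peaks in its whole list on the x axis and, on the y axis, the number inside the 6 windows (left) or in the centromere bands of 17 other chromosomes (right). On the left, 72 h replicates 1 and 2 stand alone at 1337 and 1292 peaks, and on the right untreated replicate 1, the longest list, is highest at 1084.

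By group means, the bases covered by peaks differed between the groups more than the counts did, and the peaks at 72 h were also wider. Peaks covered 59.6, 143 and 89.8 kb of the windows after 24 h, 521, 511 and 109 kb after 72 h, and 31.2, 94.8 and 43.3 kb in untreated cells. That is 0.307 to 0.738% of the 19.4 Mb at 24 h, 0.562 to 2.69% at 72 h and 0.161 to 0.489% in untreated cells, so even in the fullest library most of the windows carried no peak. The log2 ratio of mean covered length was 0.79 for 24 h against untreated and 2.75 for 72 h against untreated. Without 72 h replicates 1 and 2 the second was 0.95, where that of the number was 1.01. As a share of the length covered by its own list, the windows took 0.389%, 0.788% and 0.351% at 24 h. The shares were 2.25%, 3.79% and 0.429% at 72 h, and 0.0906%, 0.553% and 0.148% in untreated cells. On this scale 72 h replicate 3 lay below untreated replicate 2. Neighbouring peaks had midpoints a median of 18.7, 15.1 and 18.9 kb apart at 24 h, 7.03, 6.60 and 15.5 kb at 72 h, and 39.9, 15.1 and 36.4 kb in untreated cells.

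Every window had more peaks at 72 h than in untreated cells on average. On chromosome 1 the mean was 84.7 ± 33.5 peaks at 24 h, 193 ± 82.1 at 72 h and 44.3 ± 34.7 in untreated cells. On chromosome 5 it was 89.0 ± 32.2, 194 ± 68.9 and 45.0 ± 23.1 in the same 3 groups, and on chromosome 19 it was 70.0 ± 33.7, 176 ± 73.1 and 30.0 ± 18.1. The 72 h mean was 4.35 times the untreated mean on chromosome 1, 4.32 times on chromosome 5 and 5.86 times on chromosome 19. Across the 9 libraries, chromosome 5 had 0.807 to 1.38 times and chromosome 19 had 0.566 to 0.943 times the peaks of chromosome 1. Chromosome 11 had 1.16 to 5 times as many. Whether the relatedness of the arrays bears on these ratios was not tested.

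The windows on chromosomes 7 and 10 were the sparsest. On chromosome 7 the libraries held 13, 24 and 20 peaks at 24 h, 67, 76 and 34 at 72 h, and 11, 21 and 19 in untreated cells. Those of chromosome 10 held 20, 26 and 35 peaks at 24 h, 87, 61 and 32 at 72 h, and 12, 22 and 18 in untreated cells. In both, all 72 h counts exceeded all untreated ones, and the 72 h mean was 3.47 times the untreated mean on chromosome 7 and 3.46 times on chromosome 10. On chromosome 7 the 72 h counts also lay above all 24 h counts, and the 24 h mean was 1.12 times the untreated one.

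Chromosome 11 held the most peaks in all libraries, from 26.2 to 53.0% of those in the windows. Its 72 h mean was 3.27 times the untreated mean, near the 3.47 and 3.46 times of chromosomes 7 and 10. Its counts were 146, 137 and 124 at 24 h, 414, 560 and 148 at 72 h, and 80, 191 and 72 in untreated cells. Here 72 h replicate 3 lay below untreated replicate 2, so this was the 1 window in which the 72 h and untreated counts overlapped. In the other 5 windows all 72 h counts were above all untreated ones. Over 2915 bins of 1 Mb with at least 9 peaks in all, the 3 counts at 72 h lay above the 3 untreated counts in 0.961% and below them in 14%. Bins were counted to the windows by a minimum overlap, so not every bin that touches a window is included. Of the 18 bins so counted, 13 were higher at 72 h and 0 lower. For 24 h against untreated the genome-wide shares were 0% higher and 14.5% lower, and 0 of the 18 bins were higher and 1 lower. For 72 h against 24 h, which the windows' choice also used, the shares were 1.03% higher and 1.34% lower, with 8 of the 18 higher and 0 lower.

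**Figure D2:**
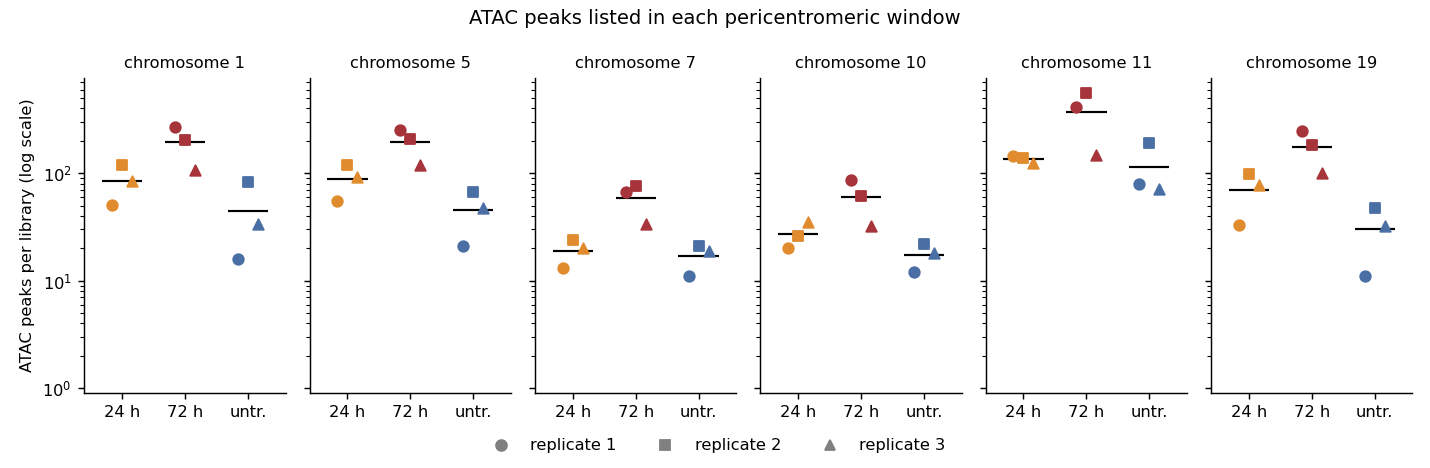
Number of ATAC peaks per library in each window, on a log scale, for the 24 h THC, 72 h THC and untreated libraries (points by replicate, n = 3 per group), with the group mean as a line. The 72 h points lie above the untreated points in 5 windows, and on chromosome 11 the lowest 72 h library, with 148 peaks, is below the highest untreated one, with 191.

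The peaks were not spread over whole windows. Merged regions ran from 47297123 to 50016925 on chromosome 5 and from 24909253 to 27187766 on chromosome 19, so the first part of both windows was empty. On chromosome 1 they ran from 121716979 to 125066741 with a nearly empty stretch near the start, and on chromosome 11 from 51090637 to 54342345. Within the occupied stretch the 72 h mean was above the untreated mean in most bins of 250 kb. Of 84 such bins, 60, 64 and 64 held a peak at 24 h, 66, 69 and 65 at 72 h, and 50, 62 and 62 in untreated cells. The number of occupied bins thus changed far less than the number of peaks. The busiest bin of a library held 23 to 30 peaks at 24 h, 29 to 53 at 72 h and 11 to 27 in untreated cells.

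**Figure D3:**
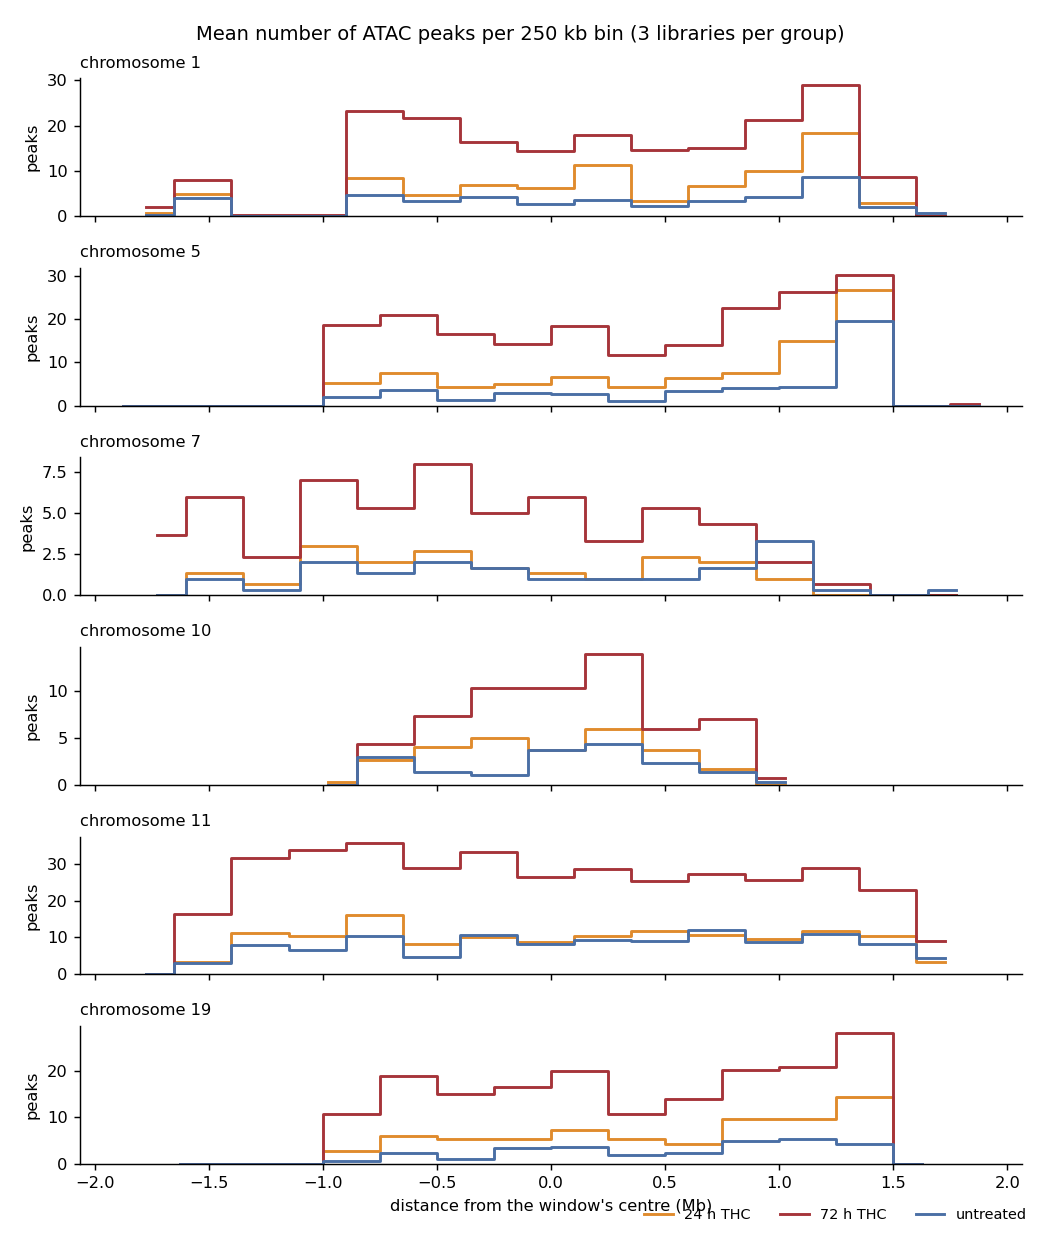
Mean number of ATAC peaks per 250 kb bin (y axis, 3 libraries per group) against the distance of the bin from the centre of its window (x axis, Mb), one panel per window, for 24 h THC, 72 h THC and untreated cells. The 72 h line is highest along most of each occupied stretch, and 1 bin near the end of the chromosome 5 window is the tallest of its panel in all 3 groups, with means of 26.7 peaks at 24 h, 30.3 at 72 h and 19.7 in untreated cells.

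Just inside the window bounds, within 250 kb of them, the lists held 11, 31 and 26 peaks at 24 h, 57, 66 and 37 at 72 h, and 11, 25 and 9 in untreated cells. Just outside, within the same distance, they held 14, 13 and 18 peaks at 24 h, 16, 15 and 22 at 72 h, and 32, 16 and 18 in untreated cells. Outside the bounds untreated replicate 1 had the highest count, and inside them it shared the second lowest.

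Peaks in the windows were narrow. Their median width was 102, 177 and 127 bases at 24 h, 268, 249 and 139 bases at 72 h, and 83, 129 and 104 bases in untreated cells. Every 72 h library exceeded every untreated one, the nearest pair being 139 bases in 72 h replicate 3 and 129 bases in untreated replicate 2. The medians of the whole lists were 162, 220 and 209 bases at 24 h, 345, 246 and 206 bases at 72 h, and 150, 169 and 185 bases in untreated cells. Peaks in the windows were thus narrower than their list in 8 of 9 libraries and slightly wider in 72 h replicate 2.

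The shortest peak of a list differed too, being 61, 84 and 73 bases at 24 h, 127, 96 and 75 bases at 72 h, and 54, 63 and 67 bases in untreated cells. The order of the libraries by shortest peak was close to their order by median width. Divided by the shortest peak of its own list, the median width in the windows was 1.67, 2.11 and 1.74 at 24 h, 2.11, 2.59 and 1.85 at 72 h, and 1.54, 2.05 and 1.54 in untreated cells. On this scale the 72 h and untreated libraries overlapped. The log2 ratio of 72 h against untreated was 1.05 for the median width itself and 0.35 for the width over the shortest peak. The part of the list's smallest allowed width in the result was not tested.

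**Figure D4:**
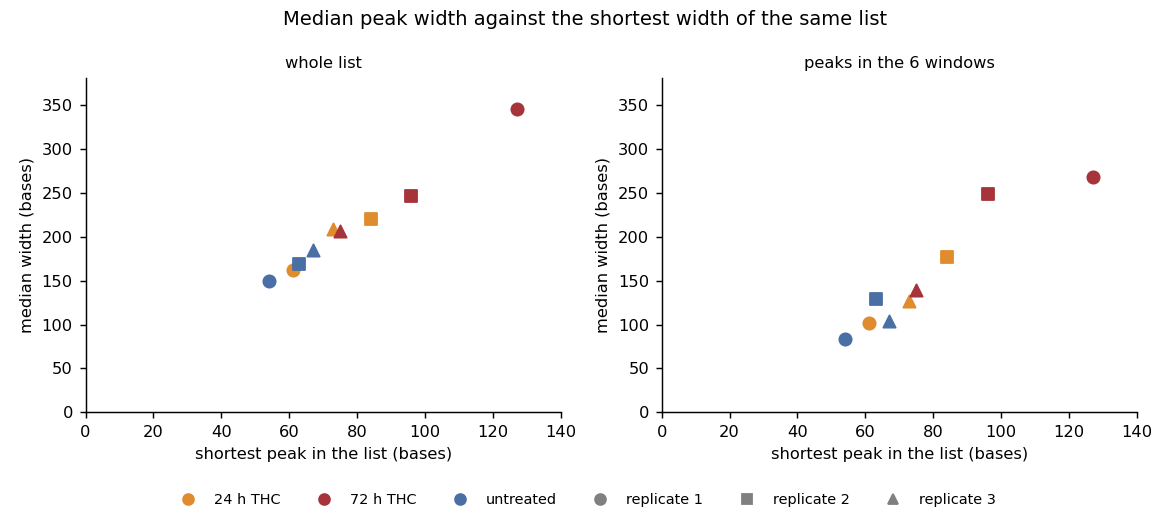
Median peak width (y axis, bases) against the shortest peak of the same list (x axis, bases) for the whole list (left) and for the peaks in the 6 windows (right), 1 point per ATAC library. In both panels libraries with a longer shortest peak have wider peaks, and 72 h replicates 1 and 2, at 127 and 96 bases, are farthest to the right.

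Peaks over 1 kb were few outside the fullest pair of libraries. There were 5, 9 and 9 at 24 h, 69, 71 and 7 at 72 h, and 4, 5 and 4 in untreated cells. As a share of the peaks in the windows they were 1.57 to 2.07% at 24 h, 5.16%, 5.50% and 1.3% at 72 h, and 1.16 to 2.65% in untreated cells. The higher share was found in 72 h replicates 1 and 2 alone. Both libraries also had the longest shortest peaks, of 127 and 96 bases, and the widest whole-list medians, of 345 and 246 bases. The share over 1 kb in the whole lists is not given here, so the higher share cannot be called a trait of the windows.

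Column 9, the authors' -log10 q of a peak, did not follow the counts. Its median in the windows was 2.48, 2.35 and 3.11 at 24 h, 2.74, 2.27 and 3.07 at 72 h, and 1.53, 2.21 and 3.15 in untreated cells. The 3 groups overlapped, and the difference of means was 0.35 for 24 h minus untreated, 0.40 for 72 h minus untreated and 0.05 for 72 h minus 24 h. In every library the windows' median was below that of the list, with a difference of -1.21 to -0.93 at 24 h, -0.61 to -0.24 at 72 h and -1.43 to -0.46 in untreated cells. A q value depends on depth and on how many tests a list held, so it ranks peaks within a list and is no measure of accessibility between lists.

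Peaks with a column 9 of at least 5 were more numerous at 72 h, but did not make up a larger share of the windows' peaks. They numbered 38, 63 and 102 at 24 h, 270, 137 and 116 at 72 h, and 17, 46 and 51 in untreated cells. All 72 h libraries were above all others, replicate 3 included. Above a column 9 of 10 the counts were 12, 10 and 24 at 24 h, 83, 26 and 31 at 72 h, and 8, 17 and 21 in untreated cells. From 20 upward they no longer separated, with 3, 1 and 6 at 24 h, 11, 1 and 5 at 72 h, and 2, 4 and 5 in untreated cells. The median fold enrichment that the authors gave these peaks was 3.34 to 4.37 over the 9 libraries.

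Most places were listed by few libraries. Of the 2549 merged regions, 1500 (58.8%) were listed by 1 library, and 1103 of these by a single 72 h library. Over all regions of the genome the share listed by 1 library was 58.4%, close to that of the windows. Which groups made up that genome-wide share was not counted. The windows differed at the other end: 24 regions (0.942%) were listed by all 9 libraries, against 8.94% of all regions. Regions listed only at 24 h numbered 264, only at 72 h 1372 and only in untreated cells 149. Of these, 253, 1103 and 144 were listed by 1 library. The same counts were not made over all regions of the genome, so nothing is read from them.

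**Figure D5:**
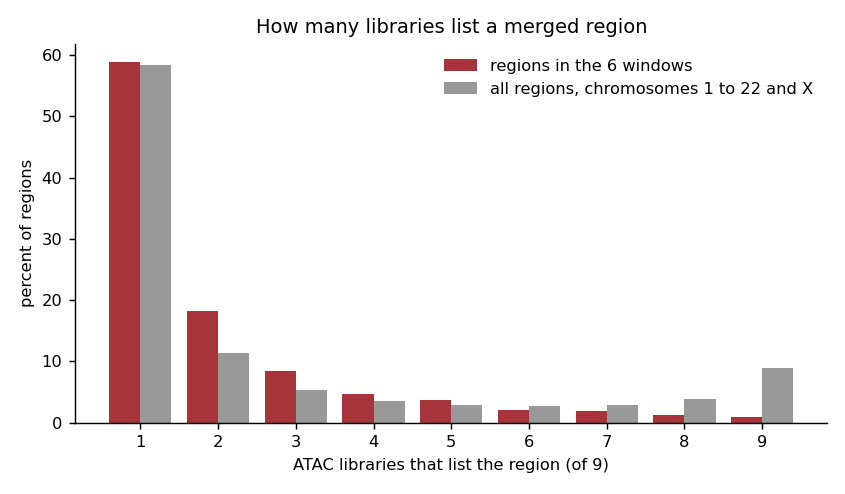
Share of merged ATAC regions (y axis, percent) by the number of the 9 libraries that list them (x axis), for the 2549 regions in the windows and for all 239554 regions. Regions listed once make up 58.8% in the windows and 58.4% of all, and regions listed by all 9 make up 0.942% and 8.94%.

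How often a pair of libraries shared peaks varied widely, and libraries of 1 group did not always share most with each other. Over the 72 ordered pairs of libraries, a median of 36.8% of the first library's peaks in the windows overlapped a peak of the second, against 64.8% of its whole list. Between 72 h replicates 1 and 2, the fullest libraries, 604 of 1337 peaks (45.2%) of replicate 1 overlapped a peak of replicate 2, and 616 of 1292 (47.7%) the other way. Over the whole lists the same shares were 51.2% and 69.8%. Of the 539 peaks of 72 h replicate 3, 373 (69.2%) overlapped a peak of replicate 1 and 335 (62.2%) a peak of replicate 2, above the 47.8% and 35.1% of its whole list. Of the 24 h libraries' peaks, a median of 57.0% over 9 pairs overlapped a peak of a 72 h library and 29.3% a peak of an untreated one, against 58.0% and 74.2% of their whole lists. Over 6 pairs, a median of 36.7% overlapped a peak of another 24 h library, against 66.0% of their whole lists. Of the untreated libraries' peaks a median of 56.1% overlapped a peak of a 72 h library, against 40.6% of their whole lists. A median of 29.3% overlapped a peak of another untreated library, against 58.1% of their whole lists. Such shares depend on the number of peaks in the second library.

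A region was called gained where 3 of 3 libraries of a THC group and 0 of 3 libraries of the other group listed it, and lost in the opposite case. For 24 h against untreated, 8 of the 2549 regions were gained and 1 was lost, where 0.0806% of all 239554 regions were gained and 0.692% lost. For 72 h against untreated, 120 were gained and 0 lost, where 0.0935% of all regions were gained and 1.27% lost. Of the 224 regions gained genome-wide at 72 h, these 120 made up 53.6%. For 72 h against 24 h, 51 were gained and 2 lost, where 0.108% of all were gained and 0.325% lost. Because the choice of windows used the same lists, nothing is read from these shares beyond their size.

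The 120 regions gained at 72 h were 24 on chromosome 1, 32 on chromosome 5, 5 on chromosome 7, 6 on chromosome 10, 22 on chromosome 11 and 31 on chromosome 19. Chromosome 11 had 1083 of the 2549 regions and 22 of the 120 gained ones. The count was 376 without 72 h replicate 3, and 23 when only peaks with a column 9 of at least 5 were used.

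The widest gained region at 72 h was chr1:121751810-121754561, of 2752 bases. Its peaks covered 2081, 2084 and 904 bases in the 72 h libraries, with a column 9 of 3.57, 2.58 and 2.65. After 24 h, replicates 1 and 2 also listed it, with 717 and 1361 bases. The next widest were chr11:53929973-53931854 with 1882 bases, chr11:52314744-52316324 with 1581, chr11:51525089-51526644 with 1556 and chr1:123926337-123927834 with 1498. Column 9 stayed between 1.57 and 3.95 in the 72 h libraries for these 4, so the widest gained regions were weak peaks.

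The 8 regions gained at 24 h rest on weak calls: 2 were gained with a column 9 of at least 5, 0 when peaks had to cover at least 0.5 of a region, and 9 to 63 when 1 library was left out. Among the 8, 4 were listed by all 72 h libraries too, and in 3 of these every 72 h column 9 was above every 24 h one. The region chr19:27078376-27078808 had a column 9 of 2.72, 2.89 and 4.35 at 24 h and 20.5, 11 and 6.03 at 72 h, and no untreated library listed it. The region chr10:40135002-40135505 had 1.90, 5.65 and 6.07 at 24 h and 17.7, 8.78 and 7.06 at 72 h, and chr5:48604301-48604722 had 2.2, 2.13 and 2.73 at 24 h and 11, 9.55 and 4.88 at 72 h. The fourth, chr5:49464960-49466078, had 3.33, 3.24 and 2.29 at 24 h and 4.46, 2.56 and 2.79 at 72 h, which overlap.

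Of the other 4 regions gained at 24 h, chr5:49551446-49551685 and chr11:54178193-54179730 were listed by 72 h replicates 1 and 2. The last pair, chr5:49511533-49512040 and chr19:26044888-26045594, were listed by no 72 h library. The 1 region lost at 24 h was chr11:53987491-53987572, a peak of 82 bases with a column 9 of 2.68, 7.01 and 5.24 in untreated cells that 72 h replicate 3 also listed, with 8.02.

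The 24 regions listed by all 9 libraries stood on 4 of the 6 chromosomes: 9 on chromosome 5, 6 on chromosome 11, 5 on chromosome 10 and 4 on chromosome 7. The windows on chromosomes 1 and 19 had none. The strongest was chr5:49599480-49603027, of 3548 bases. Its column 9 was 52.4, 41.9 and 73.0 at 24 h, 38.4, 55.1 and 83.6 at 72 h, and 33.3, 72.5 and 45.5 in untreated cells, and the groups overlapped. In every library it was the highest peak of the windows, and its mean percentile within the lists was 99.6. Its peaks covered 2391, 2703 and 3089 bases at 24 h, 2692, 2696 and 3071 at 72 h, and 3296, 2937 and 3408 in untreated cells.

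The next by mean percentile was chr5:49666165-49667333, with a column 9 of 27.5, 15.5 and 27.1 at 24 h, 15, 15 and 27.4 at 72 h, and 30.4, 28.6 and 31.1 in untreated cells. Its percentile within the list was 99.4, 94.6 and 96.5 at 24 h, 95.2, 97.9 and 97.8 at 72 h, and 99.1, 99.1 and 96.9 in untreated cells, and these overlap. The widest region of the windows, chr5:49657650-49661827 with 4178 bases, had 18.2, 14.6 and 27.8 at 24 h, 10.9, 15.7 and 27.0 at 72 h, and 18.6, 21.4 and 23 in untreated cells. Its groups overlapped. On chromosome 10, chr10:39967513-39967762 had 16.8, 11.5 and 22.8 at 24 h, 19.4, 8.87 and 21.7 at 72 h, and 10.2, 21.6 and 27.7 in untreated cells. On chromosome 11, chr11:54236165-54237090 had 21.8, 12.7 and 23.9 at 24 h, 6.23, 10.8 and 20.0 at 72 h, and 3.40, 14.6 and 17.1 in untreated cells. In none of these 5 regions did all 72 h values lie above all untreated ones. At chr5:49666165-49667333 all untreated column 9 values lay above all THC ones, though its percentiles within the lists overlapped.

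Of the 24 regions, 8 lay in 1 bin of 250 kb, chr5:49500001-49750000, which was singled out after its values were seen. It held 23, 30 and 27 peaks at 24 h, 32, 30 and 29 at 72 h, and 11, 27 and 21 in untreated cells. Its mean was 26.7 ± 3.51 peaks at 24 h, 30.3 ± 1.53 at 72 h and 19.7 ± 8.08 in untreated cells. The rest of the windows held 399 ± 99.3, 1026 ± 447 and 248 ± 138 peaks in the same 3 groups. The highest count of the bin, 32, was 72 h replicate 1's and the lowest, 11, untreated replicate 1's, as in the windows as a whole. Another wide region there, chr5:49613796-49617194 of 3399 bases, had a column 9 of 5.99, 8.07 and 12.9 at 24 h, 7.26, 9.15 and 6.78 at 72 h, and 1.93, 4.97 and 11 in untreated cells.

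H3K4me3 was a readout that the choice of windows did not use. No H3K4me3 peak fell in the windows in any of the 3 THC or 3 untreated libraries, whose lists held 30098 to 35879 peaks. The peak nearest to a window was 110 to 111 kb away, at chromosome 19, in all 6 libraries. It follows from this, and is no separate result, that none of the ATAC peaks in the windows overlapped an H3K4me3 peak. Of all ATAC peaks, 43.2 to 51.8% did at 24 h, 40.3 to 50.3% at 72 h and 25.4 to 49.7% in untreated cells. With 0 in every library the exact two-sided permutation test had nothing to compare (p = 1.0, and 3 libraries against 3 cannot go below 0.1). In the centromere bands of the other chromosomes the lists held 81, 91 and 92 H3K4me3 peaks with THC and 76, 82 and 80 in untreated cells.

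The RefSeq annotation placed 1 of its 59792 genes in the windows, the pseudogene LOC101060796 on chromosome 7 from 60991902 to 60993220, which 5 peaks of the 9 lists overlapped and for which no RNA value was found. Of the 12 genes that flank the windows, 4 were expressed enough to be tested. Calls were common among all tested genes: 25% rose and 51.7% fell at 24 h, and 40.1% rose and 33% fell at 72 h. ZNF254, a zinc finger gene 70.0 kb before the chromosome 19 window, had 9.32 ± 0.326 TPM at 24 h, 11.7 ± 1.21 TPM at 72 h and 9.12 ± 0.548 TPM in untreated cells. It passed the test at 72 h with a log2 fold change of 0.32 ± 0.08 (SE, limma, adjusted p = 0.00400), and its log2 fold change at 24 h was 0.03 ± 0.08 (adjusted p = 0.747). ZNF33B, another zinc finger gene 974 kb after the chromosome 10 window, had 12.6 ± 1.54 TPM at 24 h, 22.8 ± 1.08 TPM at 72 h and 11 ± 1.65 TPM in untreated cells, a log2 fold change of 1.00 ± 0.11 at 72 h (adjusted p = 1.46e-05). Its values are uncertain because it has a close paralogue, ZNF33A, with which reads could be shared. ZNF37A, a zinc finger gene before the chromosome 10 window, fell by 0.40 on the log2 scale at 24 h and rose by 0.13 at 72 h (adjusted p = 7.23e-05 and 0.0464). UQCRFS1, a subunit of mitochondrial complex III encoded 1905 kb after the chromosome 19 window, fell by 0.31 at 24 h and by 0.39 at 72 h (limma, adjusted p = 0.000197 and 4.20e-05). OR4C46, an olfactory receptor gene 103 kb after the chromosome 11 window, was listed at 0 TPM in all 9 libraries.

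RNA of proteins that build heterochromatin and centromeres was then read from the same cells. The 3 gene lists were drawn up with earlier results of these data known. Of the 13753 genes tested with limma, 25% rose and 51.7% fell at 24 h, and 40.1% rose and 33% fell at 72 h, at an adjusted p under 0.05. The median log2 change of all tested genes was -0.23 at 24 h and 0.06 at 72 h. With each library centred on its median, 4954 genes were higher and 5128 lower at 24 h, and 4790 higher and 5347 lower at 72 h, so the 72 h balance then turned. In bulk libraries fewer cells of a kind and less RNA per cell cannot be told apart.

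Of 38 pericentric heterochromatin genes, 7 rose and 24 fell at 24 h, with a median log2 change of -0.52, and 10 rose and 21 fell at 72 h, with a median of -0.30. With each library centred on its median, 12 rose and 21 fell at 24 h. The fallen share was 63.2% at 24 h and 55.3% at 72 h, beside 51.7% and 33% of all tested genes. The risen share was 18.4% at 24 h and 26.3% at 72 h, below the 25% and 40.1% of all tested genes. UHRF1, which brings the maintenance DNA methyltransferase to replicated DNA, had 5.45, 4.88 and 5.13 TPM at 24 h, against 31.5, 31.2 and 30.0 TPM in untreated cells. Its log2 fold change was -2.38 ± 0.06 at 24 h (adjusted p = 8.91e-10), and the groups did not overlap. LBR, a receptor of the inner nuclear membrane that binds HP1, fell by 1.91 and HELLS, a chromatin remodeller needed for DNA methylation of satellites, fell by 1.74 on the log2 scale at 24 h. At 72 h LBR had 22.3 ± 1.33 TPM and untreated cells 68.1 ± 3.84 TPM, and HELLS had 16.1 ± 0.715 TPM against 49.3 ± 0.784 TPM. CBX5, the gene of HP1 alpha, had 33.0, 33.2 and 32.7 TPM at 72 h, against 81.8, 91.0 and 83.4 TPM in untreated cells, a log2 fold change of -1.35 ± 0.05 (adjusted p = 6.62e-09).

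Other genes of the list rose. SETDB2, of a family of histone methyltransferases, had 11.8 ± 0.816 TPM at 24 h, 11.1 ± 0.566 TPM at 72 h and 5.87 ± 0.241 TPM in untreated cells. DNMT3A and DNMT3B, which methylate DNA at new sites, rose at 24 h by 0.71 and 0.65 on the log2 scale. KMT5C, which methylates lysine 20 of histone H4 in pericentric heterochromatin, rose by 0.67 at 72 h, and MBD1, a protein that binds methylated DNA, rose by 0.64.

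Of 33 centromere and kinetochore genes, 1 rose and 32 fell at 24 h, with a median log2 change of -0.99, and 2 rose and 27 fell at 72 h, with a median of -0.65. The fallen share was 97.0% at 24 h and 81.8% at 72 h, beside 51.7% and 33% of all tested genes. OIP5, part of the complex that licenses loading of CENP-A, had 5.42 ± 0.273 TPM at 24 h, 13 ± 0.466 TPM at 72 h and 31.8 ± 1.40 TPM in untreated cells. SPC25 and SPC24, which belong to the NDC80 complex that holds microtubules, fell as well, SPC25 by 2.06 at 24 h and SPC24 by 1.36 at 72 h on the log2 scale. NSL1, of the MIS12 complex of the kinetochore, fell by 1.76 at 24 h and by 1.27 at 72 h. MIS12 itself had 13 ± 0.839 TPM at 24 h, 29.1 ± 1.83 TPM at 72 h and 18.3 ± 1.14 TPM in untreated cells. It fell by 0.46 on the log2 scale at 24 h and rose by 0.64 at 72 h. CENPC, which binds CENP-A nucleosomes, had a log2 fold change of 0.16 ± 0.06 at 24 h (limma, adjusted p = 0.0314) that was not called in 4 of the fits that left out 1 library. CENPT, which links the centromere to the kinetochore, fell by 0.55 on the log2 scale at 24 h (adjusted p = 3.62e-06). Its log2 fold change at 72 h was 0.23 ± 0.05 (adjusted p = 0.00236), and that call was lost when each library was centred on its median.

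Of 8 genes of the chromosomal passenger complex and of cohesin protection, 0 rose and 7 fell at 24 h, and 0 rose and 8 fell at 72 h. Among all tested genes 51.7% fell at 24 h and 33% at 72 h. BIRC5, the survivin subunit of the passenger complex, had 61.1 ± 2.90 TPM at 24 h, 84.5 ± 5.10 TPM at 72 h and 162 ± 4.53 TPM in untreated cells. INCENP, its scaffold, fell by 1.27 at 24 h and by 0.91 at 72 h on the log2 scale. SGO2, a protector of centromeric cohesin, fell by 1.37 at 24 h, and BUB1, the kinase that marks centromeric histone H2A, by 0.97 at 72 h. How the RNA and the peaks relate was not tested.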

How the data were processed

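Deposited files of 24 HEC-1A samples were used: 9 ATAC peak lists, 6 H3K4me3 peak lists and 1 RNA table. An IgG sample was not analysed here. Per the submitters' processing notes, the build was GRCh38 and the tools were Trim Galore, FastQC, Bowtie2, SAMtools, Picard, MACS3, MACS2 2.2.7.1 and Salmon, with no roles named. The sources used here do not give how reads that match several repeats were placed, nor read shifting or duplicate removal. In the lists deposited by the authors, the score column was not used, the fold enrichment is a ratio, and -log10 p and -log10 q are the caller's, with a lowest -log10 q near 1.3 in ATAC lists. RNA values are the authors' deposited TPM, which keep no depth.

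A peak was a member if it overlapped a window by at least 1 base. Across the 9 lists, peaks that overlapped or touched were joined into regions, which a library lists if any of its peaks overlaps them. Widths, coverage and column 9 were computed with Python 3.11.15, pandas 2.3.3 and numpy 2.4.6. The centromere bands of other chromosomes were entered by hand from cytogenetic band positions. For RNA, log2(TPM + 1) was fitted with limma 3.58.1 (R 4.3.3), with eBayes and trend over 3 groups of 3 libraries, for 13753 of 60179 genes with a mean of at least 1 TPM. The Benjamini-Hochberg threshold was 0.05. The scripts were tested on simulated data. Gene positions came from RefSeq for GRCh38.p14.

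The windows, the lists and the tests were chosen with earlier results of these data known. Named genes are, per list and time, up to 3 called genes with the largest rise and 3 with the largest fall, with groups that do not overlap and a mean of at least 5 TPM. Genes beside the windows were chosen after their values were seen. Named regions are the 5 with the highest mean percentile of column 9 among those listed by all 9 libraries, the 3 widest, every region gained or lost where 10 or fewer, and otherwise the 5 widest. Both regions lost at 72 h against 24 h are given as a count.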

Additional observations from a re-analysis of the deposited data

Results flagged for a closer look

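The peaks of the centromere bands of 17 other chromosomes were not part of the windows. In 3 of these bands all 72 h libraries listed more peaks than all untreated ones, and in 1 of them all 24 h libraries did. The band of chromosome 6 held a mean of 64 ± 18.7 peaks at 72 h and 31.3 ± 6.03 in untreated cells (SD, n = 3 each). The band of chromosome 21 held 13.3 ± 8.08 peaks at 72 h and 0.667 ± 1.15 in untreated cells, with 18, 18 and 4 in the 72 h libraries and 0, 2 and 0 in the untreated ones. The band of chromosome 14 held 2.67 ± 0.577 peaks at 24 h, 9.67 ± 5.86 at 72 h and 1 ± 0 in untreated cells. These differences were not tested.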

How the results depend on the processing

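Ratios are log2 of group means, and column 9 values are differences. Holding each list to the same number of peaks moved the number of peaks to 1.3 for 24 h against untreated, 3.61 for 72 h against untreated and 2.31 for 72 h against 24 h, and the covered length at 72 h against untreated to 4.12. It moved the column 9 difference to -1.83, -2.73 and -0.90 in the same 3 comparisons, since longer lists then lose their weak peaks. With a column 9 of at least 5 these differences were -0.85, -1.21 and -0.36. Relative to its own list, a scaling also added after seeing the data, the 72 h against untreated ratio was 2.75 for number. For the median width divided by the list's shortest peak it was 0.35. The 72 h minus 24 h column 9 difference, relative to the list, was 0.61. Without 72 h replicates 1 and 2, likewise added later, the ratios of 72 h were 1.01 (number), 0.95 (length) and 0.40 (width) against untreated and 0.34, 0.16 and 0.039 against 24 h.

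Regions gained at 24 h numbered 2 with a column 9 of at least 5 and 0 when the peaks had to cover at least 0.5 of a region. Regions gained at 72 h against untreated numbered 51 under that cover limit, 23 with a column 9 of at least 5, 76 with equal lists and 306 without 72 h replicates 1 and 2, where 2 were lost. Against 24 h the gained ones numbered 24, 12 and 209 with the cover limit, the column 9 limit and both libraries left out, and 7 were lost in the last. The 1 region lost at 24 h was lost to 0 when peaks within 500 bases were merged, under the column 9 limit and with equal lists, and the 2 lost at 72 h against 24 h became 1, 0 and 0, and 0 with the cover limit. Leaving out 1 library gave 9 to 63 gained and 1 to 11 lost at 24 h, 123 to 376 gained and 0 to 6 lost at 72 h, and 60 to 255 gained and 3 to 11 lost for 72 h against 24 h. Fewer libraries then have to list a region. The number ratio stayed at 0.38 to 1.19 at 24 h and 1.69 to 2.50 at 72 h, and at 1.89 to 2.15 at 72 h when a window was left out. Leaving out the chromosome 5 bin, also added later, moved no measure by more than the spread between replicates. Where no reason is given, the cause was not tested.

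With each RNA library centred on its median, 12 heterochromatin genes and 1 passenger or cohesin gene rose at 24 h, and 1 kinetochore gene rose at 72 h. Leaving out 1 RNA library gave 0 to 1 risen kinetochore genes at 24 h. Of 351 alternative values of named genes, 346 kept direction and call. The exceptions were CENPC at 24 h without 24 h replicate 2 or 3 or untreated replicate 1 or 3, and CENPT at 72 h after centring, with a log2 fold change of 0.14. Replicate numbers did not pair the RNA libraries, as 2 of 9 correlations of same-numbered deviations were above 0.1. With the number as a block, 24 heterochromatin and 32 kinetochore genes fell at 24 h, and 21 and 26 at 72 h. The alternatives for RNA of genes in the windows were not run, since the 1 gene there had no value. The H3K4me3 count in the windows was 0 with the block too, and no paired fit was made of the ATAC measures, which were only described.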

Other observations

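The centromere bands of the 17 other chromosomes together held 526, 497 and 677 ATAC peaks at 24 h, 786, 735 and 714 at 72 h, and 1084, 544 and 757 in untreated cells. The groups overlapped, and untreated replicate 1, which has the longest list, was highest. As a share of the list this was 0.848 to 0.867% at 24 h, 1.54%, 1.91% and 0.884% at 72 h, and 0.718 to 0.836% in untreated cells, so that all 72 h libraries lay above all untreated ones. Divided by these band peaks, the peaks in the windows came to 0.605, 1.05 and 0.643 at 24 h, 1.70, 1.76 and 0.755 at 72 h, and 0.139, 0.792 and 0.293 in untreated cells, and 72 h replicate 3 was below untreated replicate 2.

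Of the 2915 bins of 1 Mb, 18 were counted to the windows by a minimum overlap and 65 to the other centromere bands. Among the 40 bins with the highest 72 h to untreated ratio of mean peak counts, 16 were counted to the windows, 22 to the other centromere bands and 2 to neither. A high ratio could rest on 72 h replicates 1 and 2 and on few peaks. The first of the 40, chr20:27000001-28000000, had 34, 18 and 0 peaks at 72 h and 0, 1 and 0 in untreated cells. Of the 28 bins that were higher at 72 h in all libraries, 13 were counted to the windows, 13 to the other bands and 2 to neither.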
